A study of Mus musculus with 6 samples.

Results

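The mouse sperm tail is built around a microtubule core that is wrapped, along most of its length, by outer dense fibres and, in the principal piece, by a fibrous sheath. The 10 genes described here encode proteins of these structures: *Akap3*, *Akap4*, *Fsip1*, *Fsip2*, *Ropn1*, *Ropn1l*, *Spa17*, *Cabyr*, *Odf1* and *Odf2*. Every array probe annotated with 1 of these gene names was taken, which gave 17 probes of 41174 non-control probes and 10 of 27376 gene names on the array.

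The series compared testes of Prss55-/- and wild type (wt) mice on single-colour oligonucleotide arrays, to find genes whose RNA level differs when PRSS55, a membrane-anchored serine protease of the testis, is missing. Each genotype had 3 arrays, each from testis of a male mouse aged 6 to 8 weeks, and both genotypes had the mixed 129Sv/C57BL/6 background. The Prss55-/- mice carried an allele disrupted by homologous recombination and came from crosses between heterozygotes. The Prss55-/- arrays all sat on 1 slide and the wt arrays on 2 others, with wt replicates 1 and 2 on one and wt replicate 3 on the last, so slide and genotype cannot be told apart.

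The fibrous sheath is a scaffold of ribs and columns made largely of A-kinase anchoring proteins, which hold cAMP-dependent protein kinase beside the enzymes of glycolysis in the tail. The outer dense fibres are stiff, cysteine-rich rods that give the tail its elasticity. Most of these genes are transcribed in spermatids, the haploid germ cells that build the tail.

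All 6 arrays were alike in detection, with between 69.5 and 72.9% of spots well above background and 0 saturated spots. Prss55-/- replicates 2 and 3 correlated at 0.9973 over the tested probes. Replicate 1 correlated with them at 0.9935 and 0.9945, and with the wt arrays at 0.9928 to 0.9937. The *Prss55* probe read 15.08, 14.95 and 14.93 on the Prss55-/- arrays and 15.87, 15.77 and 16.01 on the wt arrays, in normalized log2 signal. It was lower by 0.90 (log2 difference -0.90, limma adjusted p = 0.01), with no overlap, but its signal stayed well above background on the 3 Prss55-/- arrays. How the probe lies relative to the disrupted part of the gene is not given in the sources used here. The paper reported *Prss55* RNA as absent in Prss55-/- testis by RT-PCR, and the protein as absent by Western blot and immunofluorescence. The source of the remaining probe signal was not tested. Of 56 tested marker genes in 10 lists of testis and epididymis cell types, 0 passed limma's adjusted threshold of 0.05, and 20 had an unadjusted p below 0.05, which is 35.7% beside 24.9% of all tested genes. Of the 5 epididymal markers on the array, *Crisp1*, *Lcn5*, *Lcn8* and *Defb1* did not pass the filter on dim probes in either genotype. The other one, *Rnase10*, read 7.29, 4.64 and 5.44 on the Prss55-/- arrays, 2 of which detected it above background, and 8.60, 8.80 and 8.71 on the wt arrays. The genotypes did not overlap, with a log2 difference of -2.91 and a limma adjusted p of 0.0925. Fewer cells of a type and less RNA per cell cannot be told apart in bulk testis.

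The stretches of RNA that the probes read are shown for the scaffold genes and for the *Fsip* pair, since the results below turn on whether separate stretches of 1 transcript gave like answers. Sequences and positions are those of the array files, 5′ to 3′, with positions in build mm9. *Fsip1* lies on the minus strand of chromosome 2 and was read at chr2:118030796-118030855 and, 43244 bases away, at chr2:118074040-118074099.
Fsip1 probe A_51_P153614: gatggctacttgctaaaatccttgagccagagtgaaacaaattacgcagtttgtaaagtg
Fsip1 probe A_52_P474961: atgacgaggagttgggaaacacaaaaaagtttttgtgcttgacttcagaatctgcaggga
*Fsip2*, on the plus strand of the same chromosome, was read at chr2:82818996-82819055 and, 19210 bases away, at chr2:82838206-82838265.
Fsip2 probe A_51_P389435: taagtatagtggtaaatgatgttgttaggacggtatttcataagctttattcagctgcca
Fsip2 probe A_52_P72162: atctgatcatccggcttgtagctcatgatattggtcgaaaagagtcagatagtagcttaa
The single probes of the A-kinase anchoring proteins lie on plus strands, at chr6:126816717-126816776 for *Akap3* and chrX:6654892-6654951 for *Akap4*.
Akap3 probe A_51_P209413: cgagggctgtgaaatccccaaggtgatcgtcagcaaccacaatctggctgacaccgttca
Akap4 probe A_51_P212509: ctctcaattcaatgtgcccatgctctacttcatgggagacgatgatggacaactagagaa

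In the comparison of the genotypes, 1 of the 10 genes differed: *Fsip1* was higher in Prss55-/- testis, on both of its probes, by 0.70 and 0.79 on the log2 scale. The other 9 genes did not pass the test on any of their 15 probes, where the adjusted p from limma ran from 0.104 to 0.955. Across the whole array 1.71% of tested genes passed in either direction, 0.798% as higher and 0.923% as lower in Prss55-/- testis, against 1, 1 and 0 of the 10 members. By probe, 2 of 17 passed, beside 1.21% of all tested probes, and the excess over the background is a single gene. All 17 probes were well above background on all 6 arrays, so no member was lost to, or kept only by, the filter on dim probes. At an unadjusted p below 0.05, limma passed 3 probes of 2 genes, *Fsip1* and *Fsip2*, where 19.1% of all tested probes and 24.9% of all tested genes passed.

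**Figure D1:**
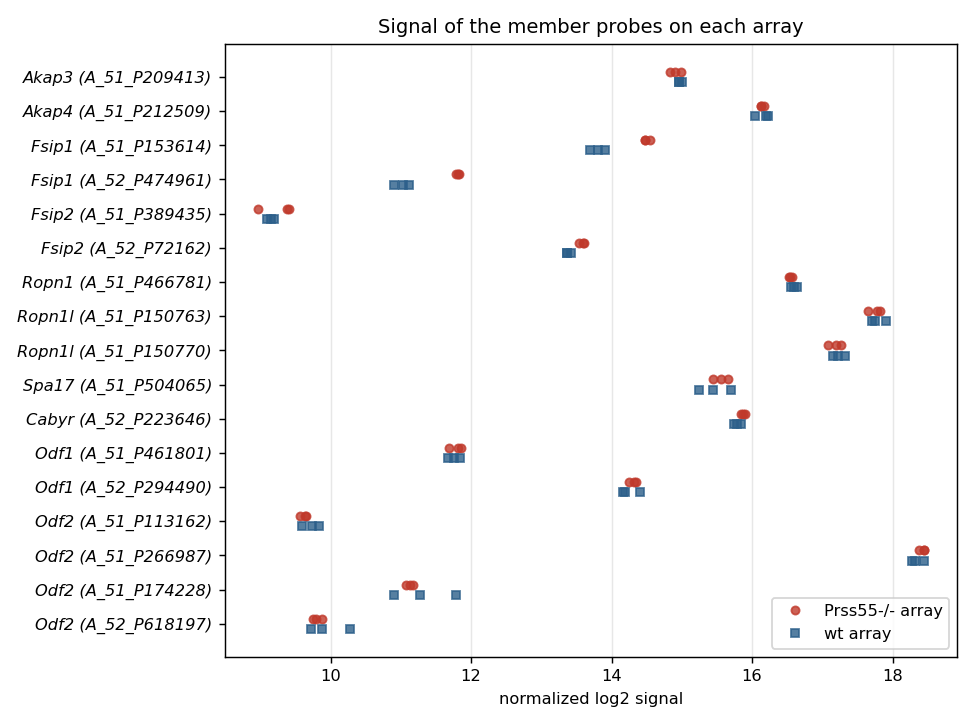
Normalized log2 signal (x axis) of the 17 member probes (rows, with the probe name) on each of the 3 Prss55-/- arrays (circles) and 3 wt arrays (squares). The brightest *Odf2* probe sits above 18 and the dimmest *Fsip2* probe near 9, and the *Fsip1* rows are the ones with a gap of more than 0.5 between circles and squares.

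By signal, these genes are among the brightest of the testis. The brightest probe of every member lay above the percentile 91.8 of all probes on every array, and for 7 of the 10 members it lay in the top 5% on all 6 arrays. The brightest *Odf2* probe ranked between 6 and 9 of 41174 probes, and the brightest *Ropn1l* probe between 17 and 38. These ranks describe the probes and not the amounts of RNA, because each probe binds with its own strength.

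The A-kinase anchoring proteins AKAP3 and AKAP4 are the main structural proteins of the fibrous sheath. *Akap4* read 16.17, 16.13 and 16.13 on the Prss55-/- arrays and 16.04, 16.20 and 16.22 on the wt arrays. The Prss55-/- values lay inside the wt range, and the difference was -0.0083 with a 95% interval from -0.16 to 0.14 (limma adjusted p = 0.955). *Akap3*, whose protein is laid down first in the assembly of the sheath, read 14.83, 14.90 and 14.99 on the Prss55-/- arrays and 14.96, 14.96 and 15.01 on the wt arrays. Its Prss55-/- replicates 1 and 2 were below every wt array while replicate 3 was within the wt range, and the difference was -0.069 with an interval from -0.20 to 0.067 (limma adjusted p = 0.540).

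FSIP1 and FSIP2 were named as proteins that interact with the fibrous sheath, and FSIP2 binds AKAP4. The *Fsip1* probe A_51_P153614 read 14.48, 14.48 and 14.55 on the Prss55-/- arrays and 13.69, 13.90 and 13.81 on the wt arrays. The lowest Prss55-/- array stood 0.57 above the highest wt array, a lack of overlap shared by 26.3% of all tested probes. In linear terms the signal was 1.63-fold higher in Prss55-/- testis, with a 95% interval from 1.45 to 1.82 (limma adjusted p = 0.0124).

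The second *Fsip1* probe, A_52_P474961, read 11.79, 11.81 and 11.82 on the Prss55-/- arrays and 10.90, 11.11 and 11.03 on the wt arrays. Again all Prss55-/- arrays were above all wt arrays, here by a gap of 0.68, and wt replicate 1 was the lowest array on both probes. The fold was 1.73 with an interval from 1.55 to 1.94 (limma adjusted p = 0.00847). The differences on the 2 probes were 0.092 apart, with standard errors of 0.068 and 0.066. Both were under the 2-fold change that the study's methods used beside their own test, and 555 of 28606 tested probes had a difference of at least the size of the smaller *Fsip1* one.

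**Figure D2:**
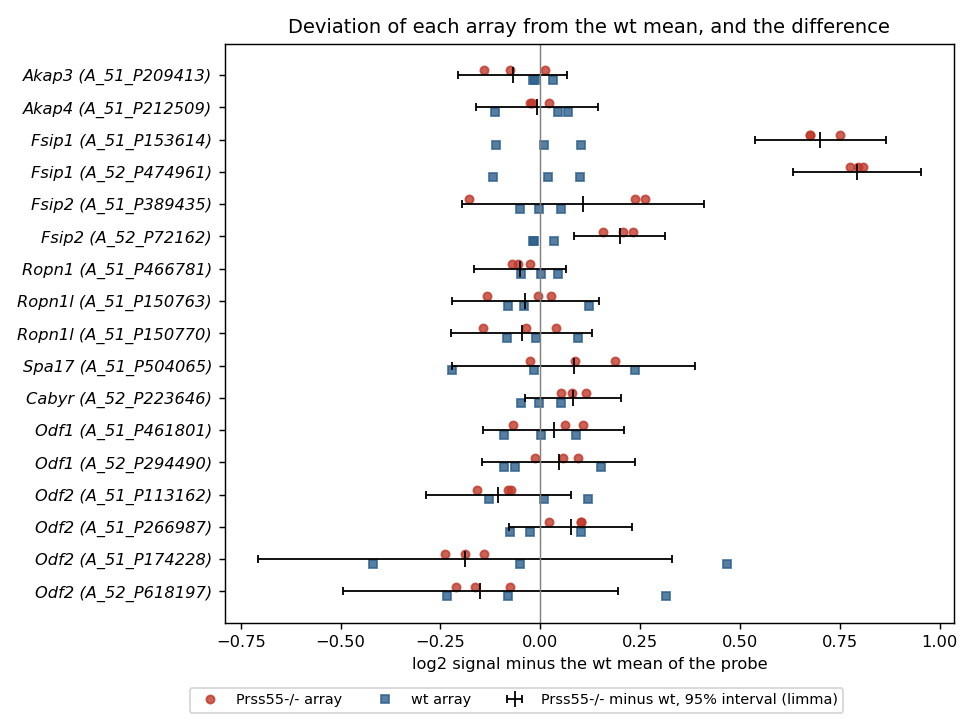
For each of the 17 member probes (rows), the log2 signal of each Prss55-/- array (circles) and wt array (squares) minus the wt mean of that probe, with the Prss55-/- minus wt difference (black tick) and its 95% interval from limma (bar). The intervals of the *Fsip1* probes start at 0.54 and 0.63, that of *Fsip2* A_52_P72162 at 0.085, and the other 14 include 0.

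The call on *Fsip1* depended on the test and on single arrays. It was lost on both probes with the methods' t-test after Benjamini-Hochberg adjustment (adjusted p = 0.0713 and 0.0610) and with the replicate number as a block in limma (0.103 and 0.0961). It was also lost on both probes when Prss55-/- replicate 2 was left out (adjusted p = 0.0682 and 0.0535 from limma) and likewise for Prss55-/- replicate 3 (0.0795 and 0.0622), and leaving out wt replicate 1 lost it on A_51_P153614 alone (0.0513). A limma fit that treated the slides as random gave an adjusted p of 0.0153 and 0.0105. That fit cannot take a slide difference out of the genotype difference, because no slide held both genotypes. The size moved little, from 0.65 to 0.75 on A_51_P153614 and from 0.73 to 0.84 on A_52_P474961 over 15 other settings, and it was higher in Prss55-/- testis under all 15 of them on both probes.

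**Figure D3:**
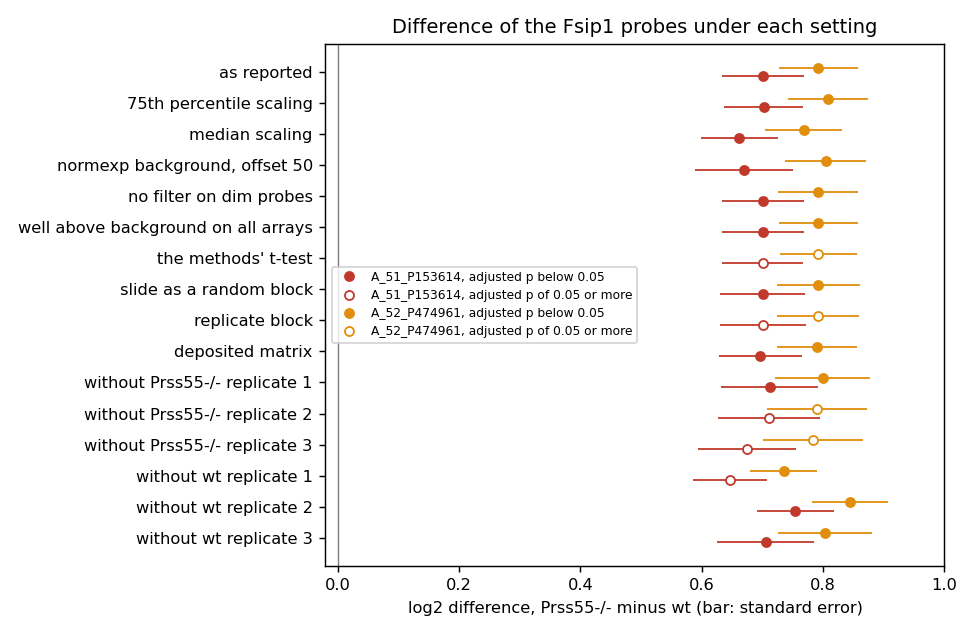
Log2 difference of the *Fsip1* probes, Prss55-/- minus wt (x axis, points with the standard error as bars), as reported and under each of 15 other settings (rows). Filled points have an adjusted p below 0.05, and open points, such as those without Prss55-/- replicate 2 or 3, do not.

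*Fsip2*, which encodes a very large sheath protein, had the next largest difference on a brightest probe. Probe A_52_P72162 read 13.54, 13.59 and 13.61 on the Prss55-/- arrays and 13.37, 13.42 and 13.36 on the wt arrays. The genotypes did not overlap, and the difference of 0.20 had an interval from 0.085 to 0.31 and an adjusted p of 0.104 in limma. The dim probe A_51_P389435 read 8.97, 9.41 and 9.38 on the Prss55-/- arrays and 9.10, 9.15 and 9.20 on the wt arrays. Here Prss55-/- replicate 1 was the lowest of the 6 arrays and the other two Prss55-/- arrays were the highest, and the difference was 0.11 with an interval from -0.20 to 0.41 (limma adjusted p = 0.678).

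ROPN1, ROPN1L, SPA17 and CABYR carry a docking domain like that of the regulatory subunit of cAMP-dependent kinase, and bind AKAP3 and AKAP4 in the sheath. *Ropn1*, which encodes ropporin, read 16.55, 16.57 and 16.53 on the Prss55-/- arrays and 16.60, 16.55 and 16.65 on the wt arrays. These ranges overlapped, with a difference of -0.051 and an interval from -0.17 to 0.064 (limma adjusted p = 0.595). The brightest probe of the ropporin-like gene *Ropn1l* read 17.66, 17.79 and 17.82 on the Prss55-/- arrays and 17.75, 17.71 and 17.91 on the wt arrays. Its difference of -0.037 (limma adjusted p = 0.818) and that of -0.047 (0.757) on its second probe were both smaller than the spread between replicates.

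*Spa17*, encoding sperm protein SP17, read 15.55, 15.65 and 15.44 on the Prss55-/- arrays and 15.45, 15.24 and 15.70 on the wt arrays. The wt arrays covered the whole Prss55-/- range, and the interval of the difference, from -0.22 to 0.39, was the widest of any brightest member probe (difference 0.083, limma adjusted p = 0.753). *Cabyr*, a calcium-binding sheath protein that is phosphorylated when sperm become able to fertilize, read 15.87, 15.91 and 15.84 on the Prss55-/- arrays and 15.79, 15.74 and 15.84 on the wt arrays. The lowest Prss55-/- array was level with the highest wt array to the second decimal, and the difference was 0.081 with an interval from -0.038 to 0.20 (limma adjusted p = 0.418).

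ODF1 and ODF2 are the principal proteins of the outer dense fibres, and ODF2 also occurs at centrosomes. The brighter *Odf1* probe read 14.24, 14.35 and 14.32 on the Prss55-/- arrays and 14.20, 14.17 and 14.41 on the wt arrays. Its difference was 0.046 (interval -0.15 to 0.24, limma adjusted p = 0.784), beside 0.033 (0.829) on the dimmer probe 83 bases away, and the genotypes overlapped on both.

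The brightest *Odf2* probe, A_51_P266987, read 18.45, 18.37 and 18.45 on the Prss55-/- arrays and 18.45, 18.32 and 18.27 on the wt arrays. The ranges overlapped, and the difference was 0.076 with an interval from -0.077 to 0.23 (limma adjusted p = 0.551). The other 3 *Odf2* probes were much dimmer and read lower in Prss55-/- testis on average, by -0.10, -0.19 and -0.15, none past the threshold. On A_51_P174228 the values were 11.08, 11.13 and 11.17 for Prss55-/- and 11.78, 11.27 and 10.90 for wt. There wt replicate 1 stood above all other arrays, as it did on each of the 3 dim probes, and without it the difference on A_51_P174228 turned to 0.044.

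Over the 10 brightest probes the median difference was 0.061, beside -0.0023 over all tested genes, with 6 members higher and 4 lower in Prss55-/- testis. Without *Fsip1* the median was 0.046 and the differences ran from -0.069 to 0.20. For these 9 genes the whole 95% interval of the brightest probe lay within 0.5 on the log2 scale on either side of 0, that is, within 1.41-fold. Of all 15 probes of these genes this held for 14, and the interval of *Odf2* A_51_P174228 ran from -0.71 to 0.33. Quantile normalization sets values at the top of the array by rank. The brightest *Odf2* probe, at ranks 6 to 9, had a difference of 0.15 (standard error 0.076) with 75th percentile scaling. The replicate spread was a little smaller than usual for the array: the pooled SD of the brightest member probes had a median of 0.072, against 0.090 over all tested genes. Among wt arrays, replicate 3, the one on a slide of its own, was the highest for 7 of the 10 members, and the part of slide in the differences was not tested.

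The markers of round spermatids had a higher median in Prss55-/- testis without passing the test. All 7 round spermatid markers were tested and had differences from 0.032 to 0.25, with a median of 0.18. An unadjusted p below 0.05 in limma was seen for 6 of the 7, beside 24.9% of all tested genes, while 0 passed the adjusted threshold. Their summed normalized signal ran from 204842 to 223445 on the Prss55-/- arrays and from 186093 to 194885 on the wt arrays, with no overlap. The 7 markers of elongating spermatids, the stage in which these tail proteins are put in place, had a median of -0.035 and overlapping sums. Those sums rest largely on *Prm1*, *Prm2* and *Tnp1*, whose brightest probes ranked between 1 and 5 on every array. Quantile normalization sets such top values by rank, so the overlap says little. *Tnp2* was lower in Prss55-/- testis without overlap (-0.20, limma adjusted p = 0.125), the 1 elongating marker with an unadjusted p below 0.05. The *Fsip1* differences were 0.70 and 0.79, and the largest one of a round spermatid marker on its brightest probe was 0.25. Sizes on separate probes do not show the share of a cell type. The part of either spermatid stage in the *Fsip1* difference was not tested.

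More genes near *Fsip1* on the chromosome passed the test than the share over the whole array. Within 3 Mb of its brightest probe, 83 other genes were tested and 18 of them passed limma's adjusted threshold, 7 higher and 11 lower in Prss55-/- testis, which is 21.7% against 1.71% of all tested genes. All 18 lay on the side of higher positions, where 73 genes were tested, and 0 of the 10 genes tested on the other side passed. The nearest was *Bub1b*, encoding a mitotic checkpoint kinase, 0.436 Mb away, which was lower (log2 difference -0.45, limma adjusted p = 0.0365). *Ccdc32*, 0.817 Mb away and named here after its value was seen, was higher by 0.98 on probe A_51_P259848 (limma adjusted p = 0.0247). Its other tested probe, A_52_P305182, had a difference of -0.055 (limma adjusted p = 0.644). A neighbour counted as passed if any of its probes did, so its other probes need not have. *Ltk* and *Pla2g4e*, also named after their values were seen, read lower on their array probes in Prss55-/- testis (limma adjusted p = 0.00158 and 0.000668). Their Prss55-/- signal was not well above background (0 of 3 Prss55-/- arrays), so no fold is given for them. By qRT-PCR, the paper reported *Ltk* as highly down-regulated in Prss55-/- testis. For *Pla2g4e* the paper reported a qRT-PCR change below the fold threshold of its array analysis.

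**Figure D4:**
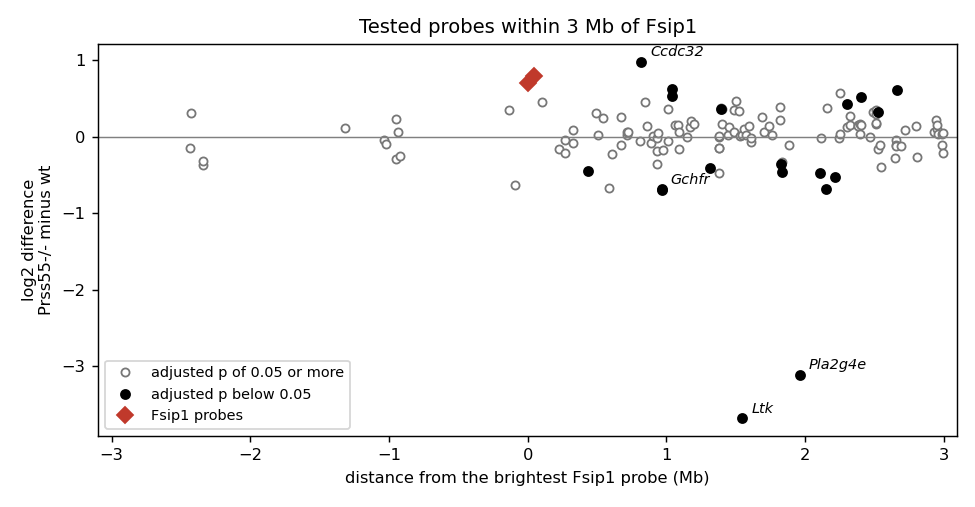
Log2 difference, Prss55-/- minus wt (y axis), of each tested probe within 3 Mb of the brightest *Fsip1* probe, against its distance from that probe in Mb (x axis, higher positions to the right). Filled points passed limma's adjusted threshold and open points did not, and diamonds are the *Fsip1* probes. All filled points lie to the right, and *Ltk* and *Pla2g4e* have Prss55-/- signals not well above background, so their plotted differences are not fold changes.

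Around each of the other 9 members, between 0 and 2 genes passed among the 22 to 117 tested within 3 Mb. The largest shares were 2 of 29 near *Cabyr* (6.90%) and 2 of 67 near *Spa17* (2.99%), beside 1.71% of all tested genes. The difference between neighbourhoods was not tested. The count near *Fsip1* also depended on the processing and on single arrays. It was 8 with no filter on dim probes (2 higher and 6 lower), 8 with the methods' t-test after Benjamini-Hochberg adjustment (2 higher and 6 lower) and 2 with the replicate number as a block (0 higher and 2 lower). The share of all tested genes called fell as well, to 0.482, 0.448 and 0.0678% in that order. With the other scalings, normexp, the stricter filter, the slides as random and the deposited values, the count near *Fsip1* was between 15 and 19. Leaving out Prss55-/- replicate 1 gave 20 genes and leaving out wt replicate 3 gave 16, with 4.01 and 1.98% of all tested genes called. The count dropped to 3 when Prss55-/- replicate 2 was left out and to 2 for Prss55-/- replicate 3, with 0.323 and 0.209% of all tested genes called. For wt replicate 1 it was 4 and for wt replicate 2 it was 7, with 0.344 and 0.641% of all tested genes called. *Prss55* itself is on chromosome 14, and the part of these neighbours in the *Fsip1* difference was not tested.

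Genes that work beside the members in the tail showed no call. Among 14 other fibrous sheath genes (anchoring proteins, kinase subunits and the sperm forms of glycolytic enzymes), 0 passed limma's adjusted threshold in either direction, with a median difference of 0.014. An unadjusted p below 0.05 in limma was seen for 3 of the 14, beside 24.9% of all tested genes. *Akap14*, an anchoring protein of the tail, read 11.40, 11.39 and 11.42 on the Prss55-/- arrays and 10.99, 11.22 and 11.18 on the wt arrays. It was higher on every Prss55-/- array, by 0.27, with a limma adjusted p of 0.130. *Prkar2a*, a regulatory subunit of the kinase that the anchoring proteins hold, had its smallest p on a dim probe that 2 of the 3 Prss55-/- arrays detected above background (difference -0.27, limma adjusted p = 0.144), while its 3 other probes had differences between -0.049 and 0.021.

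Among 11 other outer dense fibre genes, 0 passed and the median difference was 0.035. An unadjusted p below 0.05 in limma was seen for 5 of the 11, beside 24.9% of all tested genes. *Odf3l1*, a relative of the fibre gene *Odf3*, came closest: it read 11.82, 11.86 and 11.90 on the Prss55-/- arrays and 11.39, 11.59 and 11.57 on the wt arrays. No wt array reached the Prss55-/- values, and the difference of 0.34 had a limma adjusted p of 0.0793. *Klc3*, a kinesin light chain that binds the fibres, differed by -0.23 (0.119).

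Of 9 genes that couple head and tail, 0 passed and 2 had an unadjusted p below 0.05 in limma, *Sun5* (difference 0.23, adjusted p = 0.169) and *Hook1* (0.15, 0.156), with a list median of 0.024. *Sun5* is also 1 of the round spermatid markers. The *Hook1* value is that of its dimmest probe. Its other probes had differences from 0.015 on the brightest to 0.10, none with an unadjusted p below 0.05 in limma. Of 8 genes of the mitochondrial sheath and the annulus, 0 passed and 2 had an unadjusted p below 0.05, the annulus transporter *Slc26a8* (-0.15, 0.180) and the mitochondrial protein *Phb* (0.16, 0.224), with a median of -0.0087. The dimmer *Phb* probe had a difference of 0.015. The counts of 2 in the head and tail list and the mitochondrial sheath list stand beside 24.9% of all tested genes with an unadjusted p below 0.05. In all 4 lists the study's t-test, after Benjamini-Hochberg adjustment, also passed 0 genes.

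**Figure D5:**
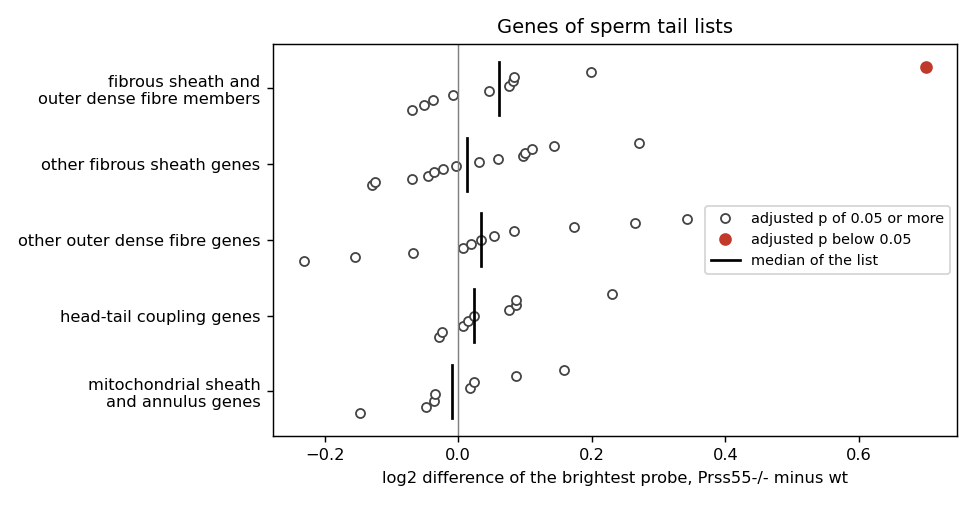
Log2 difference of the brightest probe of each gene, Prss55-/- minus wt (x axis), for the 10 members and the 4 other sperm tail lists (rows; 1 point per gene, spread vertically only for sight). Vertical bars are list medians, between -0.0087 and 0.061, and the 1 filled point, *Fsip1* at 0.70, is the only gene past limma's adjusted threshold on its brightest probe.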

How the data were processed

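Total testis RNA was labelled with Cy3 and hybridised to 4 x 44K whole mouse genome arrays. The authors scanned them and extracted spot intensity values with Agilent Feature Extraction 10.7; the deposited intensity is the background-subtracted processed signal. A deposited value table of log2 values, which the authors normalized by quantiles, served as an alternative. Here processed signals were floored at 1, taken to log2, spots flagged as outliers were left out (2 missing values remained among tested probes), arrays were quantile normalized and spots of a probe averaged (R 4.3.3, limma 3.58.1). Tested were probes that every array of at least 1 genotype detected above background, 28606 probes of 19181 genes, with limma (two-sided, Benjamini-Hochberg over all tested probes, threshold 0.05). After the fits, the same fit was run on simulated arrays whose spread was taken from these data. A gene counted as called if any probe passed. The number of arrays limits the precision.

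Named genes are all members, Prss55, the 2 genes of smallest p in each list with none called, the 5 genes most like the members' mean profile and the called gene nearest to *Fsip1*. Called genes near the other members are counted but not named. Further genes, such as the markers *Rnase10* and *Tnp2*, were named outside this rule. Members and lists were chosen with earlier results of these data known. A figure legend of the paper speaks of 3 pairs of mice, without saying how they were paired. Whether the replicate numbers follow those pairs is not given. Same-numbered deviations correlated at -0.054, -0.023 and -0.11, and different-numbered ones between -0.058 and 0.11. With 3 arrays per genotype these values cannot show whether the mice were paired. The alternatives were other scalings, background corrections, filters, tests and blocks, and leaving out each array. The array's build is mm9, per the file headers.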

Additional observations from a re-analysis of the deposited data

How the results depend on the processing

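Over 15 alternatives, 255 values of the member probes were recomputed: 232 kept their direction and side of the threshold, 9 kept their direction but were no longer past it, all *Fsip1*, and 14 changed sign, none of them called. The number of member genes called, 1, was 0 with the methods' t-test and 0 with the replicate block, and 0 to 1 when single arrays were left out. The methods' t-test without adjustment passed 2 member genes, *Fsip1* and *Fsip2*, and 0 at their fold threshold, and its adjusted p for *Fsip1* was 0.0713 and 0.0610. The replicate block (limma adjusted p = 0.103 and 0.0961 for *Fsip1*) takes same-numbered arrays as pairs, and whether the numbers follow the pairs of mice is not given. All genes called, 328, became 132 with no filter on dim probes, 86 with the methods' t-test, 13 with the replicate block, and 40 to 769 when single arrays were left out, lowest without Prss55-/- replicate 3 and highest without Prss55-/- replicate 1. The median member difference ran from 0.0070 without wt replicate 2 to 0.071 when single arrays were left out, and from 0.042 with median scaling to 0.082 with 75th percentile scaling over the other alternatives. Sign changes were *Akap4* (0.014) and *Ropn1l* A_51_P150763 (0.038) with scaling to the 75th percentile, and *Ropn1* (0.015) with normexp. With single arrays left out, *Akap4* ranged from -0.064 to 0.024, *Ropn1l* A_51_P150763 from -0.077 to 0.023 and A_51_P150770 from -0.089 to 0.0041, *Spa17* from -0.027 to 0.20, *Odf1* A_51_P461801 from -0.012 to 0.084 and A_52_P294490 from -1.4e-05 to 0.12, *Odf2* A_51_P174228 from -0.40 to 0.044 and A_52_P618197 from -0.27 to 0.0078. The cause was not tested.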

Other observations

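Over the 6 arrays, the genes outside the members whose brightest probe varied most like the members' mean centred signal were AK076949, 1700041M19Rik, NAP028605-1, *Fbxo15* and *Scaper*, with Pearson r between 0.995 and 0.996. This is a description over 6 arrays that share their slides and normalization, and 774 of 19170 genes compared had r above 0.9. None of the 5 passed limma's adjusted threshold (adjusted p from 0.144 to 0.415). The mean centred log2 signal of the members was 0.027, 0.066 and 0.061 on the Prss55-/- arrays and -0.079, -0.086 and 0.012 on the wt arrays, and without *Fsip1* it was -0.0066, 0.037 and 0.023 against -0.036, -0.068 and 0.051, where the genotypes overlap.

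Leydig cell markers, which no member belongs to, had a median difference of -0.59 over 6 tested genes, with 0 past limma's adjusted threshold. An unadjusted p below 0.05 in limma was seen for 3 of the 6, beside 24.9% of all tested genes. Their summed signal ran from 33507 to 52753 on the Prss55-/- arrays and from 52061 to 59945 on the wt arrays.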
